A study of Mus musculus with 18 samples.

Results

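The microRNAs (miRNAs) described here carry the names miR-297, miR-466, miR-467 and miR-669 in the mouse, with all their arms. They were taken by name and by a minimum of 20 reads summed over 18 small-RNA libraries, a rule that uses no difference between groups. The families themselves were chosen with earlier results of these data known. So were miR-466h-3p and miR-669e-5p, which are named in every comparison where they were tested. Of the 1841 mature miRNAs listed, 54 had such a name and 46 of these reached the minimum. Just inside it lay miR-669h-3p with 20 reads, miR-466l-5p with 21 and miR-467f with 24. Just outside lay miR-669k-3p with 19 reads, miR-466o-3p with 9 and miR-467g with 6.

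The libraries came from 1-month-old male C57BL/6J mice, 3 biological replicates for each of 6 groups. WT and Cyrano-/- (CyrKO) mice gave cerebellum and hippocampus. Cdr1as671 mice, whose Cdr1as carries a deletion of 18 nt at its miR-671 site, and the double mutant CyrKOCdr1as671 gave cerebellum. Cyrano is a long noncoding RNA and Cdr1as a circular RNA, so neither is measured in these libraries and the deletions could not be checked from them. The p-values below measure the spread between these replicates, and the RNA is that of whole tissue, in which fewer cells of a type and less RNA per cell cannot be told apart.

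A miRNA is cut from a hairpin precursor, which can yield a mature strand from its 5′ arm (5p) and one from its 3′ arm (3p). Bases 2 to 8 of a mature strand form the seed, which is the main part that pairs with target messenger RNAs. Most of the hairpins of these families lie head to tail in an intron of Sfmbt2, a gene of the Polycomb group, in a cluster known from rodents and studied mainly in placenta, where Sfmbt2 is imprinted. Many of the mature strands hold alternating UG or CA repeats, and members can differ by few bases, so the authors' assignment of reads between near-identical members is uncertain.

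In the GENCODE M21 annotation of GRCm38, 81 hairpins carried the family names, of which 71 lay within Sfmbt2 on chromosome 2, none of them overlapping an exon of that gene, and 10 lay elsewhere. Of the 46 members, 38 had hairpins in Sfmbt2 alone and 31 had a single hairpin there. Another 3, miR-297a-5p, miR-466f and miR-466f-3p, had copies both in Sfmbt2 and on chromosome 7 or 13. The other 5 lay outside the cluster altogether, namely miR-466i-5p and miR-466i-3p on chromosome 13, miR-466k and miR-466q on chromosome 3, and miR-467f on chromosome 11. The build used for the deposited counts is not given in the sources used here.

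Mature sequences were matched for 4 of the 46 members in RefSeq (GRCm38.p6), all of them members outside Sfmbt2. They are printed 5′ to 3′ with the seed in capitals, to show the repeats and how the seeds differ, beside miR-574-5p, a UG-repeat miRNA of no member family that is compared with the members below. They lie at chr13:17747552-17747573 (plus strand), chr3:85467396-85467418 (plus), chr3:28419988-28420007 (plus), chr11:69635419-69635439 (minus) and chr5:64970328-64970350 (plus), in the order printed.
miR-466i-3p: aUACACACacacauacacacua
miR-466k: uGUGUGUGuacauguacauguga
miR-466q: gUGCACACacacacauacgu
miR-467f: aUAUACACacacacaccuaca
miR-574-5p: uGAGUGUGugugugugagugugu

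No 2 of the 4 member sequences shared a seed. Their longest uninterrupted repeat ran to 10 nt in miR-466i-3p, 8 nt in miR-466k and 12 nt in miR-466q and miR-467f. All 4 held at least one of 4 overlapping motifs, which were UGUGUG and its shift by a base GUGUGU, and the letters of the opposite strand, CACACA and its shift by a base ACACAC. Among 1573 listed miRNAs with a sequence, 45 (2.861%) held one of these motifs, 38 of them outside the 4 families.

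Each library held 8591172 to 15305829 miRNA reads, so that 1 read stood for 0.0653 to 0.116 CPM (the usual depth-scaled count unit, here a miRNA's reads relative to all miRNA reads of its library). Between 40 and 46 members had a read in a library, and members held 5903 to 12649 reads in all. Neuronal markers (miR-124-3p, miR-9-5p, miR-128-3p) summed to 242646 to 367613 CPM, and were found in all libraries. Erythroid markers (miR-451a and both arms of miR-144) summed to 783 and 603 CPM in Cdr1as671 libraries 1 and 2, against 5405 to 32949 CPM in the other 10 cerebellum libraries and 2583 to 3574 CPM in hippocampus. Choroid plexus markers (5 miRNAs, miR-204-5p among them) ran from 3528 to 16508 CPM in hippocampus and from 7369 to 11399 CPM in cerebellum.

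Most reads of the families came from few members. miR-467a-5p had a mean of 278.7 CPM over the 18 libraries, 34.3% of the summed level of all members, and ranked 175 among the listed miRNAs. Next came miR-669c-5p at 63.9 CPM, miR-669d-5p at 62.6 CPM, miR-467d-5p at 54.1 CPM and miR-467e-5p at 49.9 CPM. Below them were miR-669b-5p at 39.6 CPM, miR-466c-5p at 28.2 CPM, miR-297c-5p at 27.7 CPM, miR-669f-3p at 20.1 CPM and miR-466i-3p at 19.3 CPM. These 10 made up 79.3% of the summed level, and 9 of them, all but miR-466i-3p, come from Sfmbt2. In all, 1 member averaged at least 100 CPM, 16 lay between 10 and 100 CPM, 17 between 1 and 10 CPM and 12 under 1 CPM. Reads were present in all 18 libraries for 37 members.

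**Figure D1:**
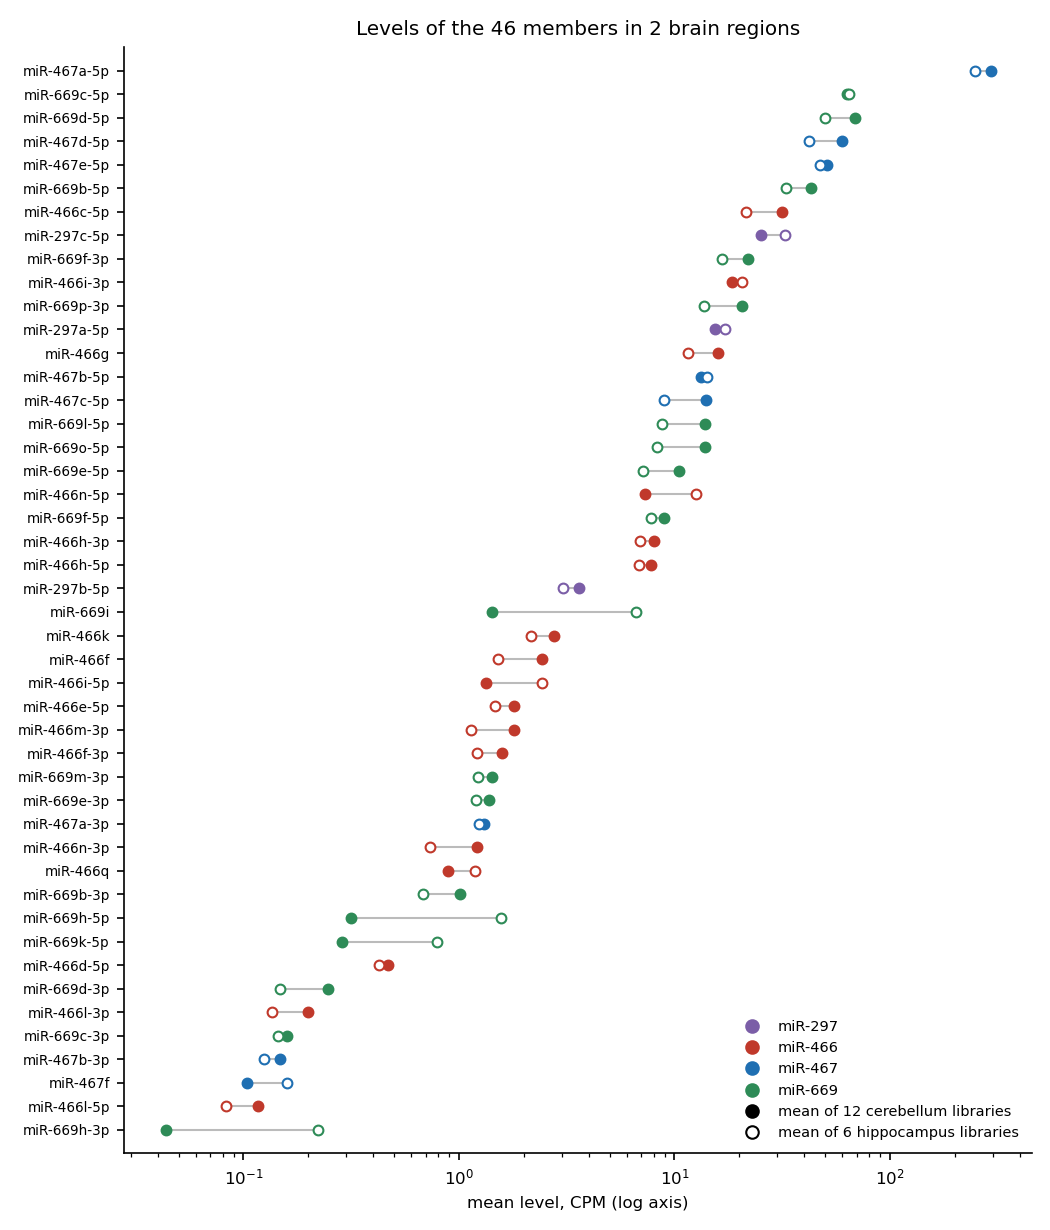
Mean level of each of the 46 members (log axis, CPM) over the 12 cerebellum libraries (filled) and the 6 hippocampus libraries (open), coloured by family. miR-467a-5p stands above the rest, and miR-669i, miR-669h-5p and miR-669k-5p have open points well to the right of the filled ones.

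The 5p arm held most reads in 9 of the 12 names that had both arms as members, and the 3p arm in 3. For miR-467a 99.5% of the reads of both arms were 5p, for miR-669c 99.8% and for miR-669d 99.6%. The balance was the other way for miR-466i, with 8.04% 5p, and for miR-669f, with 29.8% 5p, and miR-466l, with 21 reads of 5p and 34 of 3p in all, was too shallow to tell. miR-466h was nearly even, with 1431 reads of 5p and 1428 of 3p, and its 5p share ran from 39.6% to 63.6% between libraries.

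The summed level of the 46 members was 810 ± 82.7 CPM in WT cerebellum and 773 ± 57.0 CPM in CyrKO cerebellum (SD, n = 3 libraries here and below). It was 962 ± 49.7 CPM in Cdr1as671 cerebellum and 869 ± 10.2 CPM in the double mutant. In hippocampus it was 703 ± 52.4 CPM in WT and 758 ± 24.2 CPM in CyrKO. The Cdr1as671 libraries, at 912, 961 and 1012 CPM, lay above the 3 WT cerebellum libraries at 758, 766 and 905 CPM, while the double mutant libraries, at 858 to 877 CPM, lay within the WT range. With the TMM-scaled total the double mutant libraries too lay above WT, at 1035 to 1069 CPM against 846 to 982 CPM, and Cdr1as671 stood at 1048 to 1156 CPM. The sums are given as a description, with no test, since they are dominated by miR-467a-5p.

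**Figure D2:**
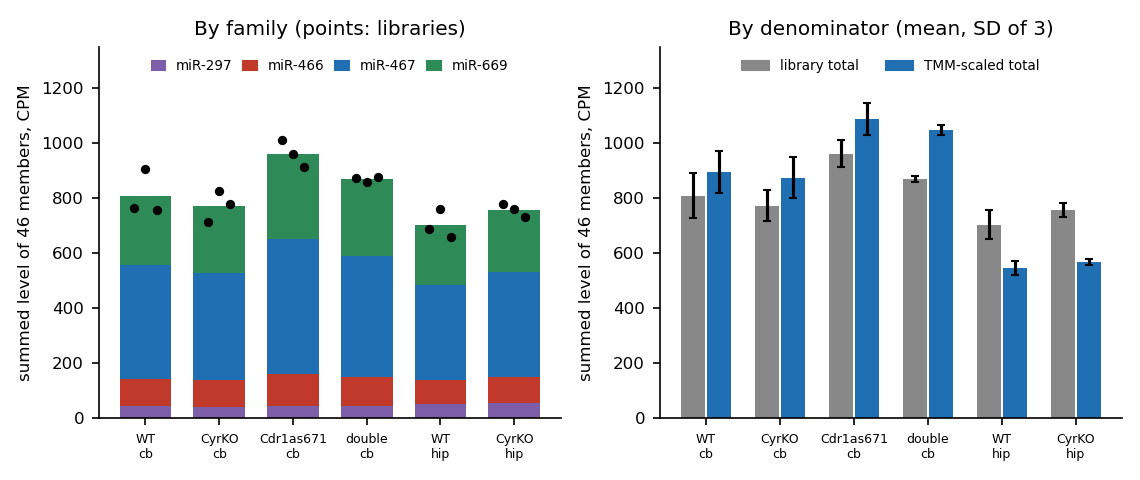
Summed level of the 46 members in the 6 groups (cb, cerebellum; hip, hippocampus), stacked by family with the libraries as points (left), and as mean and SD of 3 libraries with the library total or the TMM-scaled total as denominator (right). The hippocampus bars fall to 547 and 569 CPM with the TMM-scaled total, while the cerebellum bars rise.

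The first comparison asked how the members differed between hippocampus and cerebellum. In WT mice most members were lower in hippocampus than in cerebellum relative to the other miRNAs, and a pair from the far end of the cluster, miR-669i and miR-669h-5p, was higher. miR-669i read 2.04, 0.819 and 1.49 CPM in WT cerebellum and 7.57, 7.79 and 5.07 CPM in WT hippocampus. Its groups did not overlap, and its log2 change was 1.68 (SE 0.31), a 3.21-fold rise with adjusted p = 0.000125 from the quasi-likelihood test of edgeR and the adjustment of Benjamini and Hochberg, which give all adjusted p-values here unless another source is named. miR-669h-5p, from the neighbouring hairpin, was much sparser, with 2, 4 and 4 reads (0.178, 0.328 and 0.398 CPM) in WT cerebellum and 17, 12 and 17 reads (1.98, 1.23 and 1.83 CPM) in WT hippocampus. The groups did not overlap either, with a log2 change of 1.90 (SE 0.44, adjusted p = 0.00109).

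In the fit of the 12 WT and CyrKO libraries with TMM scaling, 37 of the 46 members were tested in WT, and 24 were lower and 3 higher in hippocampus. Of all 746 miRNAs tested, 32.4% were lower and 37.5% higher. The median log2 change was -0.82 over the members tested and 0.03 over all miRNAs. All 3 miR-297 members tested had a negative log2 change, 2 of them past the threshold, as had all 6 miR-467 members, with 5 past it. Of 14 miR-466 members, 7 were lower and 1 higher, and of 14 miR-669 members, 10 were lower and 2 higher. These directions for families rest on the scaling: with library totals alone the miR-297 median turned positive (0.12), and those of the other 3 families stayed negative (-0.17 for miR-466, -0.17 for miR-467 and -0.43 for miR-669).

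The scaling differed between the tissues. The 10 most abundant miRNAs took 55.3% to 60.1% of the reads in cerebellum and 43.7% to 47.8% in hippocampus, and the TMM factors were 0.821 to 0.921 in cerebellum and 1.25 to 1.36 in hippocampus. With library totals alone, the median of all miRNAs moved from 0.03 to 0.58 and that of the members from -0.82 to -0.27. Members lay 0.85 below the median of all miRNAs under either scaling. A change of scaling shifts all miRNAs nearly alike, so this difference could hardly change. The members' calls became 12 lower and 5 higher, where 16.9% of all miRNAs were lower and 53.9% higher. All 12 were also among the 24 lower with TMM, all 3 members higher with TMM stayed higher, and no member was called in opposite directions. This follows largely from the shift, which raised the log2 changes nearly alike, and is no separate support.

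The members lower in WT under both scalings included several of the more abundant ones. miR-466g, whose hairpin lies near the far end of the cluster, had 16.2, 16.6 and 18.7 CPM in WT cerebellum and 10.6, 12.8 and 10.4 CPM in WT hippocampus. All hippocampus libraries lay below all cerebellum libraries, with a log2 change of -1.16 (SE 0.14, adjusted p = 1.4e-06) with TMM and -0.61 with library totals. miR-669b-5p had 39.6, 50.5 and 41.8 CPM in WT cerebellum and 32.5, 32.3 and 26.1 CPM in WT hippocampus, again without overlap (log2 change -1.09, SE 0.14, adjusted p = 3.15e-06).
The others of the 10 members with the largest change were miR-466f (-1.30), miR-466c-5p (-1.20), miR-669p-3p (-1.19), miR-669l-5p (-1.19), miR-466m-3p (-1.17) and miR-669o-5p (-1.17). Of these log2 changes, that of miR-466m-3p alone missed the threshold with library totals (adjusted p = 0.103), and its groups overlapped. The most abundant member, miR-467a-5p, was at 267, 312 and 260 CPM in WT cerebellum and 225, 268 and 211 CPM in WT hippocampus, and its groups overlapped. Its log2 change was -0.81 (SE 0.11, adjusted p = 5.23e-06) with TMM and -0.25 with library totals. miR-669e-5p was lower as well (-1.04, SE 0.22, adjusted p = 0.000478), at 7.90, 10.1 and 6.67 CPM in cerebellum and 6.98, 5.43 and 5.28 CPM in hippocampus, with overlapping groups. miR-466h-3p did not pass the threshold (-0.29, SE 0.16, adjusted p = 0.115), and its change turned positive with library totals (0.26).

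**Figure D3:**
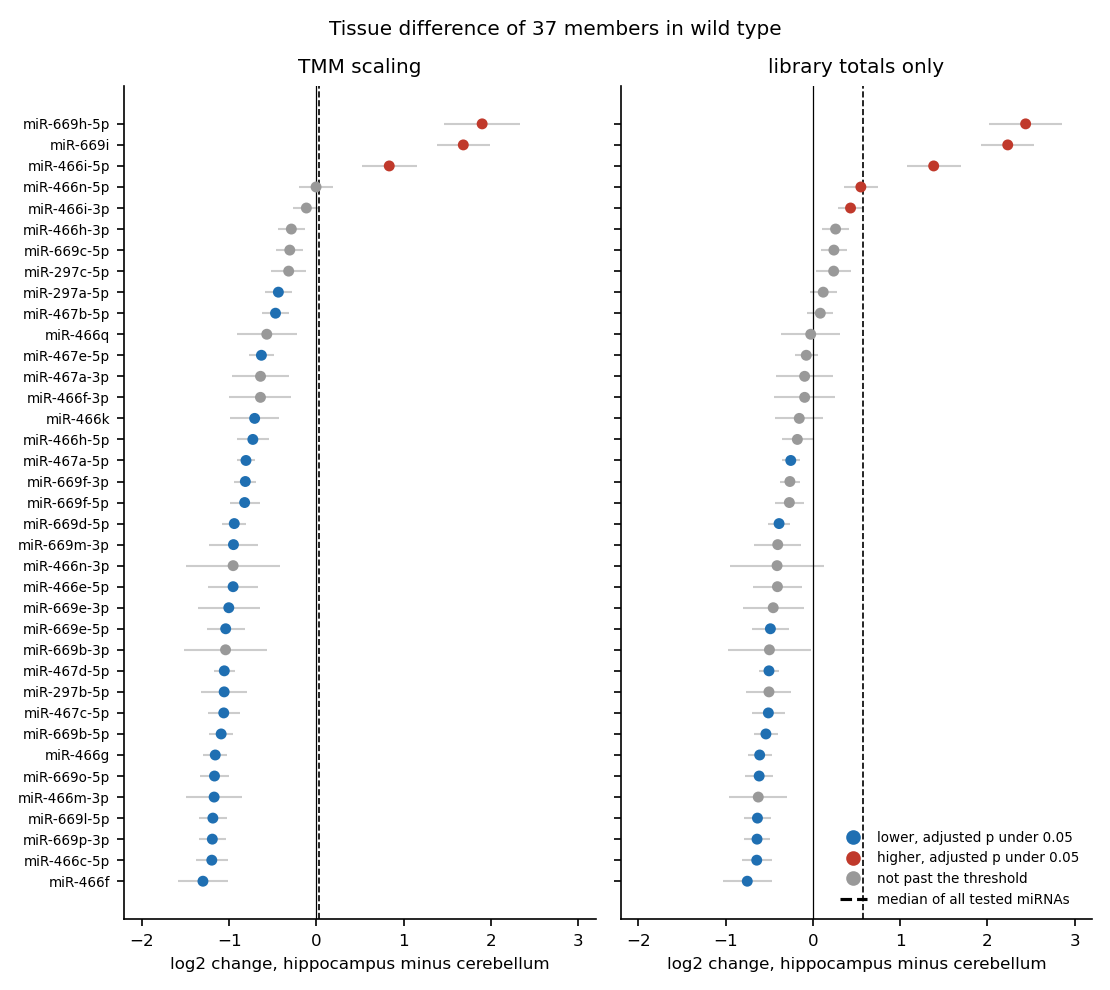
Log2 change from cerebellum to hippocampus with its SE for the 37 members tested in WT, with TMM scaling (left) and library totals alone (right); the dashed line is the median over all miRNAs tested. With TMM 24 members are lower and 3 higher, with library totals 12 are lower and 5 higher, and miR-669h-5p and miR-669i lead in both panels.

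In CyrKO mice the same contrast again gave 24 lower and 3 higher of 37 members, where 33.2% of all miRNAs were lower and 38.9% higher. The member median was -0.67 against 0.10 for all miRNAs. Of the 27 members called in each genotype, 21 were shared (77.8% of each list), 19 lower and 2 higher in both. The share common to both genotypes was not taken over all miRNAs, so the overlap cannot be called particular to the members. Both contrasts also come from the same fit. The 2 shared higher members were miR-669i and miR-669h-5p. miR-669i rose from 1.57, 2.35 and 1.61 CPM in CyrKO cerebellum to 5.44, 8.50 and 5.54 CPM in CyrKO hippocampus (log2 change 1.18, SE 0.28, adjusted p = 0.00163), and miR-669h-5p changed by 1.36 (SE 0.40, adjusted p = 0.00716). With the choroid plexus level as a covariate, an alternative chosen after seeing the data, the call of miR-669i was lost in CyrKO (0.47, adjusted p = 0.326) and that of miR-669h-5p held (1.82, adjusted p = 0.0141), and in WT both held. The third higher member was miR-466n-5p (0.53, SE 0.20, adjusted p = 0.0248), at 4.22, 7.32 and 6.52 CPM in CyrKO cerebellum and 13.6, 13.8 and 12.04 CPM in CyrKO hippocampus. Among the largest decreases were miR-466n-3p (-1.76), miR-669b-3p (-1.51), miR-466m-3p (-1.46), miR-466g (-1.24), miR-669m-3p (-1.22), miR-669e-3p (-1.08), miR-669o-5p (-1.07) and miR-669l-5p (-1.01). Of these, miR-466n-3p, miR-669b-3p and miR-669e-3p missed the threshold with library totals (adjusted p = 0.0537, 0.0878 and 0.226). With the choroid plexus covariate miR-466n-3p changed by only -0.0821 (adjusted p = 0.941) and miR-669b-3p missed the threshold (adjusted p = 0.0752). Leaving out CyrKO hippocampus library 1 ended the calls of miR-669b-3p and miR-669e-3p (adjusted p = 0.0544 and 0.08), and leaving out CyrKO cerebellum library 1 ended that of miR-669b-3p (adjusted p = 0.05001).
With library totals 8 members were lower and 6 higher in CyrKO, where 16.9% of all miRNAs were lower and 56.2% higher. All 8 were among those lower with TMM, which again follows largely from the shift in scaling. miR-669e-5p was lower with TMM (-0.77, SE 0.20, adjusted p = 0.00331), and its call was lost with library totals (-0.19, adjusted p = 0.407) and with the choroid plexus covariate (-0.55, adjusted p = 0.206). miR-466h-3p did not pass the threshold with TMM (-0.32, SE 0.15, adjusted p = 0.074), passed it with DESeq2-type size factors in edgeR (-0.37, adjusted p = 0.0391) and turned positive with library totals (0.26).

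Position along the cluster was set beside the tissue difference for the members with a single hairpin. From the start of Sfmbt2, miR-466m came at place 1, miR-669e at place 4, and miR-466g, miR-466h, miR-669i and miR-669h at places 65, 66, 70 and 71. With TMM, the 2 members of the cluster called higher in WT hippocampus were thus the last 2 tested along the gene, while miR-466g, 5 places before miR-669i, was lower. Higher levels were not limited to these last members. miR-466n-5p, at place 63 and so towards the same end, was called higher in CyrKO. With library totals it was called higher in WT too, where its log2 change with TMM was -0.0039. Its partner strand miR-466n-3p went the other way with TMM, at -0.95 in WT, not past the threshold, and -1.76 in CyrKO. miR-466n-5p read 7.37, 10.2 and 6.77 CPM in WT cerebellum and 10.9, 13.2 and 11.5 CPM in WT hippocampus. miR-669k-5p, at place 16 and too sparse to be tested, had 3, 0 and 5 reads in WT cerebellum and 9, 6 and 7 in WT hippocampus. Both arms of miR-466h, at place 66, had negative log2 changes in WT, at -0.73 for 5p (adjusted p = 0.00193) and -0.29 for 3p. Among the 4 tested members whose hairpins lie outside Sfmbt2, 1 was lower (miR-466k) and 1 higher (miR-466i-5p) in WT, and their median was -0.34, which turned to 0.20 with library totals.

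**Figure D4:**
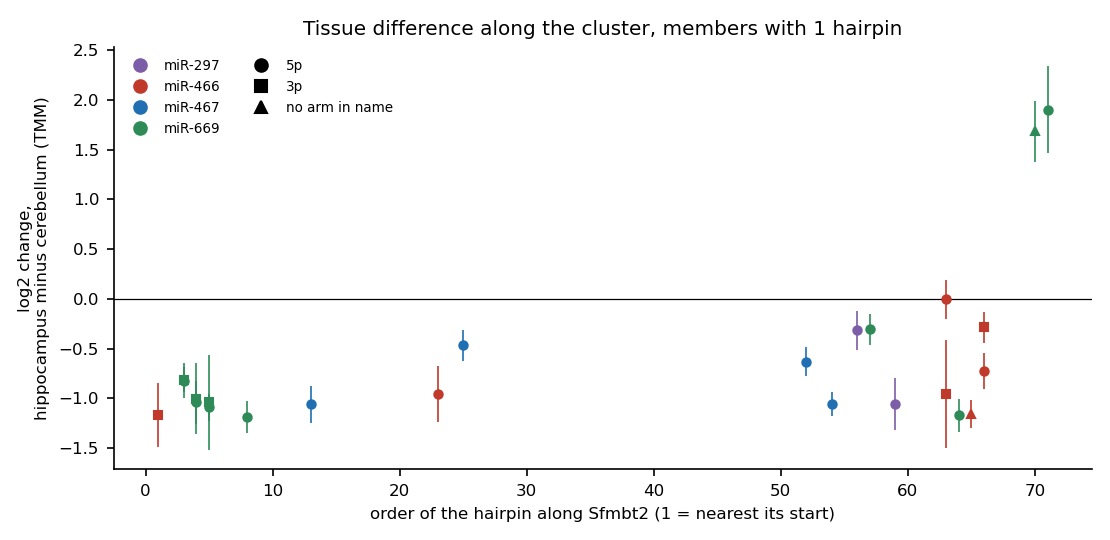
Log2 change from cerebellum to hippocampus in WT with its SE (TMM scaling) against the order of the hairpin along Sfmbt2, for members with 1 hairpin, coloured by family and shaped by arm. Points lie between -1.19 and 0.00 up to place 66, and miR-669i and miR-669h-5p, at places 70 and 71, lie at 1.68 and 1.90.

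Listed miRNAs outside the families that hold one of the motifs were set beside the members. Of 17 tested in WT, 10 were higher and 5 lower in hippocampus, beside 37.5% and 32.4% of all miRNAs. Their median log2 change was 0.85. Several, such as miR-329-3p, miR-377-3p and miR-539-5p, hold a run of 6 nt only and lie close together on chromosome 12. Sequences were matched for only 4 members, so the 2 lists do not compare miRNAs by their repeats. miR-574-5p, the example printed above and chosen after its values were seen, had 8.43, 11.5 and 10.3 CPM in WT cerebellum and 31.3, 34.4 and 34.2 CPM in WT hippocampus (log2 change 1.18, SE 0.16, adjusted p = 4.45e-06). Erythroid markers were lower in hippocampus (3 of 3 called, median -3.19 in WT), 2 of 5 choroid plexus markers were higher, and 2 of 3 neuronal markers were lower. Their part in the members' tissue difference was not tested, beyond an alternative with choroid plexus level as a covariate, whose values stand with the CyrKO contrast above and with the processing.

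Loss of Cyrano came with no member past the threshold in either tissue. In cerebellum 35 members were tested and 0 called, where 0.898% of the 668 miRNAs tested were called. At an unadjusted p under 0.05 stood 1 member, beside 2.4% of all miRNAs, and DESeq2 also called 0. The member median was -0.05 against -0.01 for all miRNAs. The lowest p belonged to miR-466i-3p, at 14.0, 16.5 and 15.9 CPM in WT and 21.3, 18.5 and 20.6 CPM in CyrKO. Its groups did not overlap, yet its log2 change of 0.38 (SE 0.13) had an adjusted p of 0.597. miR-466h-3p changed by 0.04 (SE 0.18, 95% interval -0.36 to 0.44) and miR-669e-5p by 0.23 (SE 0.21, -0.24 to 0.69).

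In hippocampus 35 members were tested and again 0 called by edgeR and by DESeq2, where 0.57% of 702 miRNAs were called. At an unadjusted p under 0.05 stood 1 member, beside 3.85% of all miRNAs. The member median was 0.05 against 0.00 for all miRNAs. That member was miR-669e-5p, at 6.98, 5.43 and 5.28 CPM in WT and 9.53, 8.39 and 7.36 CPM in CyrKO. All CyrKO libraries were above all WT libraries, and the log2 change of 0.50 (SE 0.16) had an adjusted p of 0.846. miR-466h-3p changed by 0.01 (SE 0.14, 95% interval -0.29 to 0.32). Whether the CyrKO effect differed between the tissues was tested for 37 members and called for 0, where 0.402% of 746 miRNAs were called. At an unadjusted p under 0.05 stood 0 members, beside 4.69% of all miRNAs, DESeq2 called 0, and the lowest p was that of miR-466c-5p (0.53, SE 0.25, adjusted p = 0.942). The difference was -0.03 (SE 0.22) for miR-466h-3p and 0.27 (SE 0.30) for miR-669e-5p.

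In Cdr1as671 cerebellum 1 member rose, the 3p strand of miR-466h. miR-466h-3p read 5.50, 5.32 and 6.37 CPM in WT (62, 65 and 64 reads) and 12.7, 11.0 and 8.33 CPM in Cdr1as671 (123, 95 and 88 reads). All 3 mutant libraries were above all WT libraries, and the lowest of them was library 3. The log2 change was 0.86 (SE 0.19), a 1.81-fold rise with an adjusted p of 0.0426. It was the only call among the 35 members tested, where 0.752% of the 665 miRNAs tested were higher and 1.5% lower. Groups did not overlap for 10 members that were higher and 2 that were lower, where 12.9% of all miRNAs were higher without overlap and 12% lower. The member median was 0.17 against -0.01 for all miRNAs, and 23 of the 35 log2 changes were above 0, as were 48.3% of those of all miRNAs.

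The call held with DESeq2 (adjusted p = 0.0206) and with library totals (adjusted p = 0.0115), was lost with DESeq2-type size factors in edgeR (adjusted p = 0.0617), and rested on single libraries. Leaving out any 1 of the WT libraries, or Cdr1as671 library 1 or 2, took the adjusted p of miR-466h-3p to between 0.0749 and 0.284, while without Cdr1as671 library 3 it was 0.00349, and the log2 change lay between 0.72 and 0.99 throughout. Cdr1as671 libraries 1 and 2 were also those with few erythroid reads. Without both, in the fit of the 12 cerebellum libraries, the log2 change was 0.60 (adjusted p = 0.504), and with the erythroid level as a covariate it was 0.75 (adjusted p = 0.295). In the authors' deposited table the log2 fold change was 0.87 (SE 0.25), with an unadjusted p of 0.000509 and no adjusted p. miR-669e-5p, at 7.90, 10.1 and 6.67 CPM in WT and 11.9, 10.1 and 11.4 CPM in Cdr1as671, changed by 0.40 (SE 0.17, adjusted p = 0.215).

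In the double mutant 2 members rose against WT cerebellum, miR-466h-3p and miR-669e-5p. miR-466h-3p was at 11.9, 8.24 and 9.41 CPM in the double mutant, above all 3 WT libraries, with a log2 change of 0.86 (SE 0.17, adjusted p = 0.0293). miR-669e-5p was at 13.3, 13.8 and 11.9 CPM, also above all WT libraries, with a log2 change of 0.74 (SE 0.15), a 1.67-fold rise (adjusted p = 0.0358). These were 2 of 34 members tested, where 1.96% of the 662 miRNAs tested were higher and 0.604% lower. The member median was 0.17 against -0.01 for all miRNAs, and 27 of 34 log2 changes were above 0, as were 48% of those of all miRNAs. Groups did not overlap for 4 members that were higher and 3 that were lower, beside 4.83% and 21.8% of all miRNAs. The authors' deposited table gave adjusted p-values of 0.00999 for miR-466h-3p and 0.0138 for miR-669e-5p.

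Both calls were lost when WT library 1, WT library 3 or any 1 double mutant library was left out, with adjusted p-values of 0.0558 to 0.0951 for miR-466h-3p and 0.0599 to 0.206 for miR-669e-5p, and log2 changes of 0.72 to 0.97 and 0.62 to 0.79. With the erythroid covariate both held, at adjusted p-values of 0.0242 and 0.0395. In the fit without Cdr1as671 libraries 1 and 2, miR-466h-3p held (adjusted p = 0.0198) and the call of miR-669e-5p was lost (adjusted p = 0.0545). The erythroid sums were 16004, 5405 and 10999 CPM in the double mutant, within the range of WT cerebellum (6326 to 32949 CPM) but for library 2.

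Against CyrKO cerebellum, which shares the Cyrano deletion, miR-466h-3p was the single member to rise in the double mutant. CyrKO libraries stood at 6.97, 5.10 and 5.63 CPM, all below the 3 double mutant libraries, and the log2 change was 0.79 (SE 0.19, adjusted p = 0.0289). Of 36 members tested 1 was thus called, where 1.02% of the 688 miRNAs tested were higher and 1.31% lower, and the median was 0.22 against -0.01 for all miRNAs. Of the log2 changes 26 were above 0, as were 48.8% of those of all miRNAs, and groups did not overlap for 9 members that were higher and 2 that were lower, beside 8.43% and 21.1% of all miRNAs. The call was lost without CyrKO library 2 or 3 or double mutant library 1 or 3, with adjusted p-values of 0.056 to 0.0847. miR-669e-5p, at 7.26, 11.96 and 9.38 CPM in CyrKO, overlapped with the double mutant (0.48, SE 0.18, adjusted p = 0.153). This comparison and that of the double mutant with WT share the double mutant libraries, and that of Cdr1as671 with WT shares the WT ones.

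Between the double mutant and Cdr1as671, 36 members were tested and 0 called, where 0.727% of 688 miRNAs were called. At an unadjusted p under 0.05 stood 1 member, beside 8.58% of all miRNAs, and DESeq2 called 0. That member was miR-669i, at 0.930, 0.814 and 0.947 CPM in Cdr1as671 and 1.71, 1.74 and 1.13 CPM in the double mutant (0.87, SE 0.38, adjusted p = 0.546), without overlap but at 7 to 18 reads a library. The 95% interval of the difference was -0.39 to 0.38 for miR-466h-3p and -0.05 to 0.71 for miR-669e-5p. For the interaction of both mutations 0 of 36 members were called, where 0.145% of all miRNAs were, and 1 member had an unadjusted p under 0.05, beside 3.92% of all miRNAs. DESeq2 called 0. The lowest p was that of miR-466i-3p (-0.36, SE 0.16, adjusted p = 0.863). The interaction was -0.06 (SE 0.26) for miR-466h-3p and 0.08 (SE 0.25) for miR-669e-5p.

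The partner strands of the called members did not pass the threshold. miR-466h-5p was at 6.92, 6.39 and 7.86 CPM in WT and 8.78, 9.30 and 7.76 CPM in Cdr1as671 (0.25, SE 0.16, adjusted p = 0.427), and at 7.78, 8.43 and 6.69 CPM in the double mutant (0.20, SE 0.15, adjusted p = 0.455). miR-669e-3p was at 1.78, 2.21 and 1.49 CPM in WT and 1.04, 1.26 and 1.36 CPM in the double mutant (-0.51, SE 0.28, adjusted p = 0.327). In Cdr1as671, where miR-669e-5p was not called, it was at 1.34, 0.465 and 1.23 CPM. Its log2 fold change there was -0.85 (SE 0.54) in the authors' deposited table, which gives it no adjusted p.

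The 5p share of miR-466h reads was 55.7%, 54.5% and 55.2% in WT, 40.9%, 45.7% and 48.2% in Cdr1as671 and 39.6%, 50.6% and 41.5% in the double mutant. Neither mutant group overlapped with WT, and the means were 10.2 and 11.3 percentage points lower, and 13.5 lower in the double mutant than in CyrKO. That of miR-669e was 81.7%, 82.0% and 81.7% in WT, 89.8%, 95.6% and 90.2% in Cdr1as671 and 92.7%, 91.6% and 89.7% in the double mutant, 10.1 and 9.57 points higher, and 5.08 higher in the double mutant than in CyrKO. The miR-669e shares rest on few 3p reads, namely 20, 27 and 15 in WT, 13, 4 and 13 in Cdr1as671 and 11, 13 and 12 in the double mutant. The exact two-sided permutation p was 0.1 in all 6 comparisons, 0.1 after adjustment over them, the smallest value that 3 libraries against 3 can give. Both hairpins were examined because 1 of their strands had been called, and that strand enters the share.

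**Figure D5:**
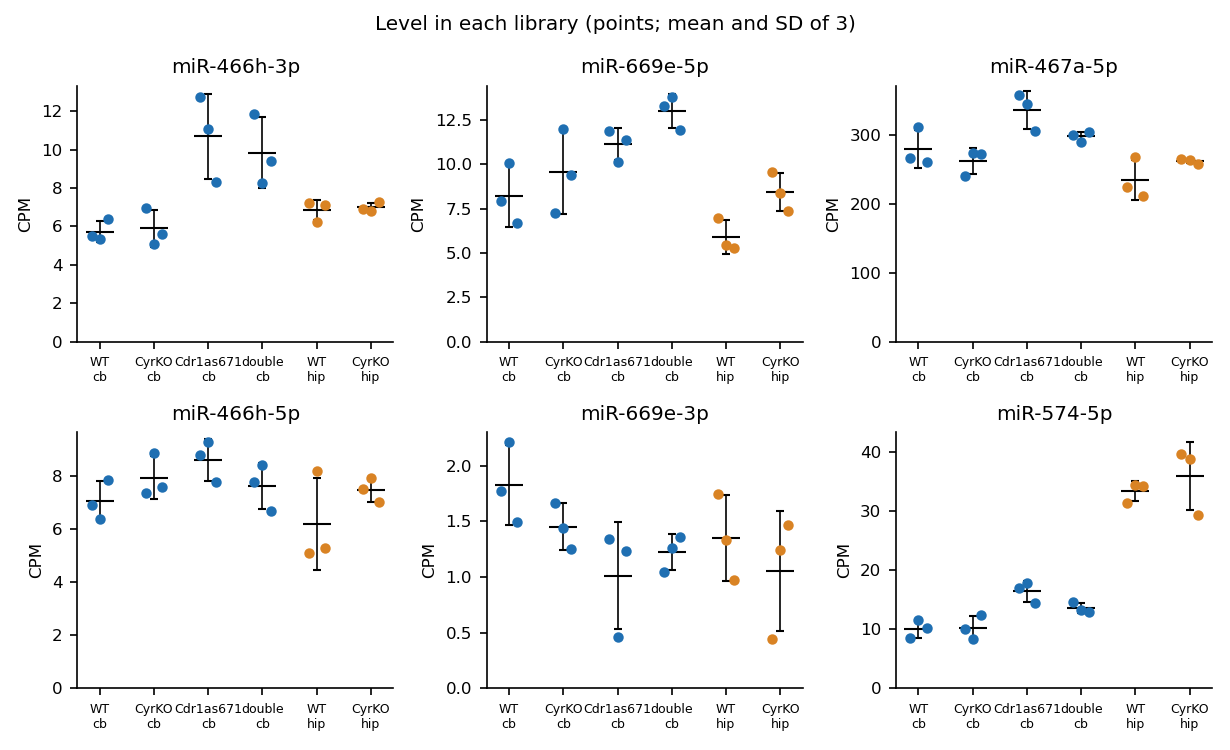
CPM in each library (points) with mean and SD of 3, for both strands of miR-466h and miR-669e, for the most abundant member miR-467a-5p and for miR-574-5p of no member family, in cerebellum (cb, blue) and hippocampus (hip, orange). The Cdr1as671 and double mutant points of miR-466h-3p, from 8.24 to 12.7 CPM, lie above all WT and CyrKO points, which reach 7.27 CPM.

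Among repeat-bearing miRNAs outside the families, 1 of 15 tested rose in each of the comparisons of Cdr1as671 and of the double mutant with WT, and none fell. Of all miRNAs, 0.752% and 1.96% were higher in these comparisons and 1.5% and 0.604% lower, so few calls were to be looked for among 15. These were miR-574-5p in Cdr1as671, at 16.9, 17.8 and 14.4 CPM (0.66, SE 0.15, adjusted p = 0.0426), and miR-539-5p in the double mutant (0.45, SE 0.09, adjusted p = 0.0312). Both are named after their values were seen. miR-574-5p in the double mutant, at 14.6, 13.2 and 12.9 CPM, changed by 0.52 (SE 0.13, adjusted p = 0.078). The median over the 15 was 0.14 in Cdr1as671 and 0.06 in the double mutant, beside 0.17 in both for the members.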

How the data were processed

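Small RNAs of 18 to 32 nt were sequenced from 5 ug of Trizol-extracted RNA of flash-frozen tissue, per the labels' protocols. The submitters' processing notes name cutadapt and DESeq2 1.10, and for aligner, annotation and build nothing is given in the sources used here. The deposited counts are whole reads per mature miRNA and library in 4 tables. The deposited normalised columns are signal, counts over a size factor, per the file headers. The authors' log2 fold changes, their test statistic (a score) and p-values stand in the same tables, and the first and last served as an alternative.

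Counts were compared in R 4.3.3 with edgeR 4.0.16 (filterByExpr at 10 reads and 15 in total, TMM, robust quasi-likelihood test, Benjamini-Hochberg over all miRNAs tested, threshold 0.05). Mutants were compared with WT of their tissue in 6 libraries, and the other contrasts came from fits of 12. CPM used library totals. The procedure was also run on simulated counts with known changes, which did not mimic the difference in scaling between the tissues. The outcome is not given here and lends no support to the calls. The members, lists and alternatives were chosen with earlier results of these data known. Named were, per comparison, members past the threshold (at most the 10 of largest change) or else that of lowest p, miR-466h-3p and miR-669e-5p, and the 10 highest levels. Alternatives covered scaling, filter, DESeq2 1.42.0, fits of more libraries, marker covariates and leaving out libraries. The p-values above come from fits without pairing. Same-numbered libraries correlated at 0.51, 0.34 and 0.29 in the double mutant and WT (deviations of log levels from the group means). Since the libraries share only a number, a replicate block was run as an alternative only, and it left the 2 calls there at 2.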

Additional observations from a re-analysis of the deposited data

How the results depend on the processing

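Counts of called members moved as follows. For Cdr1as671 against WT the single call became 0 with DESeq2-type size factors in edgeR, with a minimum mean of 10 CPM (17 members tested), with the erythroid covariate and without Cdr1as671 libraries 1 and 2 (the last chosen after seeing the data), 2 in the fit of 12 libraries, and 0 to 2 when single libraries were left out; the authors' deposited table called 0, with no adjusted p for miR-466h-3p. For the double mutant against WT the 2 calls became 1 with a minimum mean of 10 CPM and 1 without Cdr1as671 libraries 1 and 2, and 0 to 3 on leaving out single libraries. Against CyrKO the call became 0 with the minimum of 10 CPM, which miR-466h-3p does not reach, and 0 to 2 on leaving out libraries. For hippocampus against cerebellum the 27 calls became 17 in WT and 14 in CyrKO with library totals, 14 and 16 with the minimum of 10 CPM, and 17 in CyrKO with the choroid plexus covariate (chosen after seeing the data), and ran from 23 to 28 and from 22 to 30 on leaving out libraries. The cause was not tested, except that the 10 CPM minimum tests fewer members.

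Reversals fell on members that had not passed the threshold. On leaving out single libraries, the log2 change of miR-466h-3p ran from -0.0776 to 0.14 for CyrKO against WT in cerebellum, from -0.0519 to 0.0575 in hippocampus, from -0.13 to 0.15 for the double mutant against Cdr1as671 and from -0.15 to 0.13 for the interaction, and that of miR-669e-5p from -0.0565 to 0.32 for the interaction. For the double mutant against Cdr1as671, miR-466h-3p was also above 0 with DESeq2 (0.0019), with size factors (2e-04), without a filter (0.0014), with the erythroid covariate (0.0803) and without Cdr1as671 libraries 1 and 2 (0.27). For the interaction it was 0.0052 with the covariate and 0.22 without those libraries, where miR-669e-5p was -0.0121. With library totals the tissue difference of miR-466h-3p was 0.26 in both genotypes. For the difference of CyrKO effects it was 0.002 with the choroid plexus covariate and ran from -0.1558 to 0.0589 on leaving out single libraries.

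The summed levels in WT, CyrKO, Cdr1as671 and double mutant cerebellum were 896, 874, 1089 and 1048 CPM with TMM and 1985, 1791, 2372 and 1986 CPM with the 10 most abundant miRNAs taken out of the total. In WT and CyrKO hippocampus they were 547 and 569, and 1323 and 1354. With the replicate block the called members numbered 0 for CyrKO in both tissues, 1 for Cdr1as671 against WT, 2 for the double mutant against WT, 1 against CyrKO, and 27 and 26 for the tissue difference, so the block moved no count by over 1.5 times. For CyrKO against WT in cerebellum same-numbered libraries correlated at 0.39, 0.25 and 0.07. For CyrKO in hippocampus and for Cdr1as671 some same-numbered libraries correlated negatively. For WT hippocampus and WT cerebellum, which again share only a number, the values were 0.23, -0.40 and 0.38. Summing members of identical sequence was not run, since no 2 listed miRNAs with a RefSeq sequence shared it. Only 4 of the 46 members had such a sequence, so identical strands among the others could not be looked for.

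Depth limits the sparse members: 12 averaged under 1 CPM, 9 to 12 were not tested in a comparison, and a member with a few reads a library shows only large differences.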
